A study of Mus musculus with 2 samples.

Results

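Matricellular proteins are secreted into the extracellular matrix, where they bind collagens, integrins, growth factors and proteases without being load-bearing fibres themselves. Many of them are scarce in resting adult tissue and plentiful during development, wound repair and inflammation. Lubricin (Prg4) is a mucin-like glycoprotein best known as the boundary lubricant of joints, and it is treated here beside them. The 9 genes Sparc, Spp1, Postn, Tnc, Thbs1, Thbs2, Thbs4, Cilp and Prg4 were taken by symbol from the 33904 gene identifiers of 2 single-cell RNA-seq libraries, and each symbol matched 1 identifier.

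Both libraries were 10x 3′ libraries of dorsal skin from female C57BL/6J mice aged 7 weeks, depilated 24 hours before the first application. The AD library came from skin given 4.5 nmol of MC903 per application for 10 days. MC903 (calcipotriol) is a vitamin D analogue whose repeated application is used as a model of atopic dermatitis. The Ctrl library came from skin given the ethanol vehicle over the same 2 cm square. Both were collected on day 10, the labels name no transgene, and the number of mice behind a library is not given in the sources used here.

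Each condition was 1 library. No test was therefore made between conditions, and the ranges in parentheses are 95% counting intervals (Poisson for levels, Clopper-Pearson for shares, both exact), which leave out variation between mice. UMIs count distinct transcript molecules, and a level in CPM is a gene's share of all UMIs in the same group of cells, scaled to 1e+06 UMIs. Because a 3′ library yields about 1 tag per molecule, CPM compares genes without a length correction. After filtering, 11399 Ctrl cells with a median of 7813 UMIs and 8179 AD cells with a median of 6330 UMIs remained. The libraries shared 29 of their cell barcodes after filtering. Cells were sorted into classes by gates on 7 marker genes each, which placed 6265 Ctrl cells and 4766 AD cells among dermal fibroblasts (dFBs). Pdgfra, the receptor that defines dFBs, stood at 470 CPM in Ctrl and 722 in AD, and the leukocyte gene Ptprc at 25.1 and 10.2 CPM. The gates left 1277 Ctrl cells and 1378 AD cells unassigned.

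The 9 genes lie on 9 different chromosomes of GRCm38. Sparc lies at chr11:55394500-55423183, Spp1 at chr5:104435118-104441050, Postn at chr3:54361109-54391037, Tnc at chr4:63959785-64047015 and Thbs1 at chr2:118111876-118127133. Thbs2 lies at chr17:14665500-14694235, Thbs4 at chr13:92751590-92794818, Cilp at chr9:65265180-65280605 and Prg4 at chr1:150449412-150466165. All 9 are annotated as protein coding in GENCODE M21. Spp1 overlaps the annotated gene Gm42793 on its own strand, and the effect of this overlap on the Spp1 count was not examined. The start regions of Postn, lower in AD dFBs, and Tnc, higher in AD dFBs, are shown as RefSeq gives them for GRCm38.p6, as 250 bases before the start of transcription and 50 after it. The Postn window is chr3:54360857-54361156 on the plus strand and the Tnc window is chr4:64046966-64047265 on the minus strand. Capitals mark the letters TATAAA, searched as the TATA box motif and the only match in these windows among 4 motifs searched.
Postn: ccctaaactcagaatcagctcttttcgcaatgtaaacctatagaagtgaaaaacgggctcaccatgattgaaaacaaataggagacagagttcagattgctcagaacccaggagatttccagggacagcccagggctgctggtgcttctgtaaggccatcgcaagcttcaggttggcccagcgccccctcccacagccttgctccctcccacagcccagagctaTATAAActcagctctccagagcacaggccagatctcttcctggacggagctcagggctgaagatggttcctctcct
Tnc: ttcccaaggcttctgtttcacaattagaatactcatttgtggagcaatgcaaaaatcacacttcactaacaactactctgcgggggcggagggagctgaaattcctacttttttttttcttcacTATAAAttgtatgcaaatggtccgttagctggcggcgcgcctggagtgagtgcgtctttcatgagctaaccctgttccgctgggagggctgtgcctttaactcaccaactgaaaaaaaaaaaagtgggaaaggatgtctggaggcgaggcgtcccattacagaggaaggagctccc
The TATAAA match begins 26 bases upstream of the start in Postn and 126 bases upstream in Tnc. Windows were held for 7 of the 9 genes, and 4 of the 7 contained TATAAA on either strand, against 13.6% of 32851 windows in the table. The other matches began 211 bases upstream in Spp1 and, on the minus strand of the window, 126 bases upstream in Thbs2. Whether any of these matches acts as a TATA box was not tested. The AP-1 motif TGANTCA and the STAT motifs TTCNNNNGAA and TTCNNNGAA, which read the same on both strands, matched none of the 7. They matched 7.81%, 6.95% and 8.30% of all windows.

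In dFBs, all 9 genes differed between the libraries by more than 2-fold, in opposite directions. Prg4, Thbs1, Tnc, Spp1 and Thbs2 were higher in AD, and Postn, Sparc, Thbs4 and Cilp were higher in Ctrl. Of the 2047 genes that reached 100 CPM in dFBs of either library, 12.8% were 2-fold or more higher in AD and 11.8% were 2-fold or more lower. The 7 genes that reached this floor were 4 higher and 3 lower, and Spp1 and Thbs4 stayed under it. The 9 genes were chosen with earlier results of these data known, so these counts are not a test of the set. The median gene of the 2047 stood at a log2 ratio of 0.047.

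**Figure D1:**
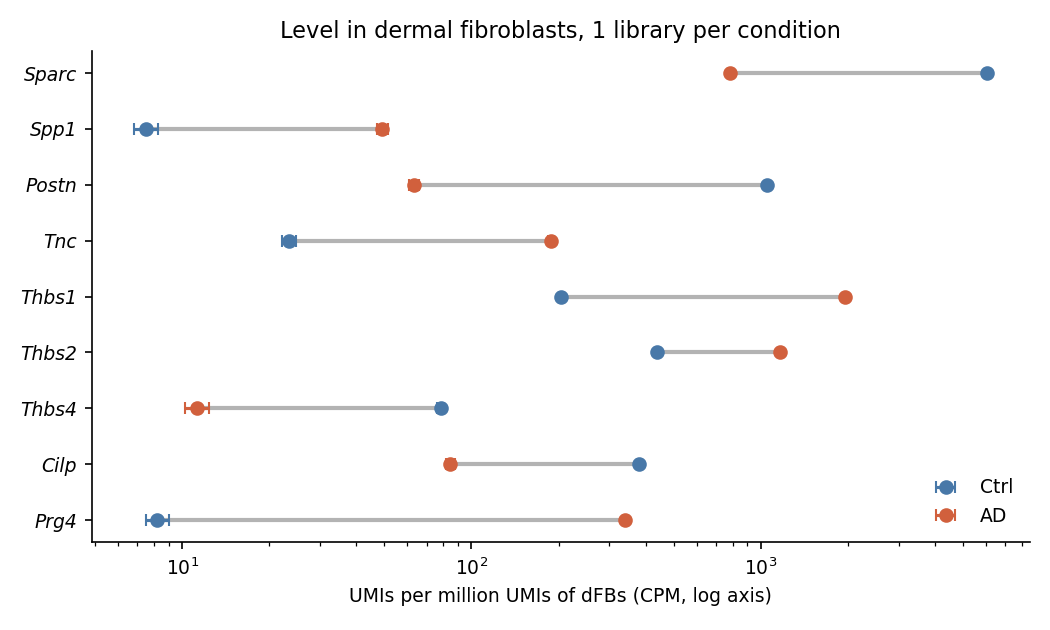
Level of each gene in dFBs on a log axis in CPM, as 1 point per library with its 95% counting interval and a grey line joining the Ctrl and AD libraries. Prg4 spans the widest gap, from 8.21 CPM for Ctrl to 340 CPM for AD, while Postn runs the other way from 1052 to 63.3 CPM.

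**Figure D2:**
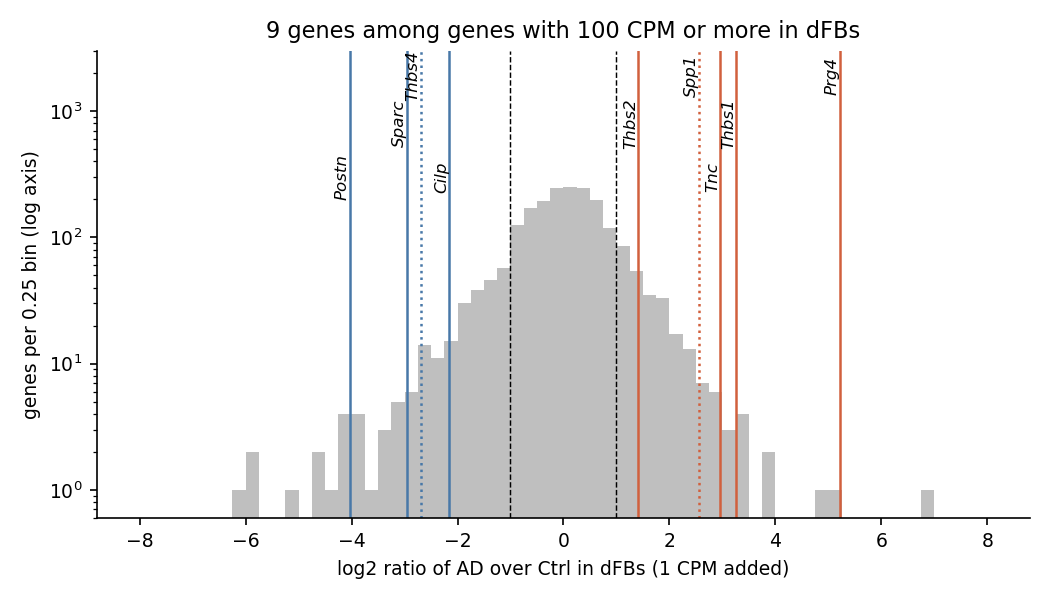
Ratio of the AD level to the Ctrl level in dFBs (log2 scale, 1 CPM added) for the 2047 genes over the floor of 100 CPM (grey, log count axis), with vertical lines for the 9 genes, dotted for Spp1 and Thbs4, which are under the floor, and dashed lines at 2-fold. All 9 lines lie outside the dashed lines, and Prg4 lies farthest to the right.

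Sparc encodes osteonectin, a collagen-binding glycoprotein that assists the assembly of collagen fibres. It was the most abundant of the 9 in Ctrl dFBs, with 354944 UMIs or 6044 CPM (6024 to 6064), and 97.3% of cells held a UMI. In AD dFBs it stood at 782 CPM (773 to 791) with 75.0% of cells, 7.73-fold lower. After each cell was thinned to 1000 UMIs, which left out 110 Ctrl and 77 AD dFBs, the shares were 86.1% and 34.1%. T cells, taken here as background for the genes other than Spp1, which activated T cells can make, held a Sparc UMI in 24.8% of cells at a median of 3194 UMIs in Ctrl and 3.33% at 5882 UMIs in AD, both well under the share in dFBs.

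Markers of the dFB gate were lower in AD beside Sparc. Of the 7 dFB markers in the gate, 5 were lower in AD by 2-fold or more (Col1a1, Col1a2, Lum, Clec3b and Dpt), and the 7 summed to 42872 CPM in Ctrl dFBs and 12182 CPM in AD dFBs. Col1a1, a chain of type I collagen, went from 11431 CPM in Ctrl dFBs to 803 CPM. The part of these markers in the lower Sparc and Postn levels was not tested. With Col1a1 and Col1a2 taken out of the gate, 5 of the 9 genes were still 2-fold or more higher and 4 lower.

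Postn encodes periostin, a fasciclin-domain protein that links collagen, tenascin-C and integrins. It stood at 1052 CPM (1044 to 1060) in Ctrl dFBs and 63.3 CPM (60.8 to 65.8) in AD dFBs, 16.6-fold lower. The share of dFBs with a UMI was 59.7% in Ctrl and 12.7% in AD, against 7.32% and 1.79% of T cells. In AD the transcripts lay in few cells: 1 dFB held 349 of the 2404 UMIs, and the 477 dFBs with the most UMIs held 94.7% of them.

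Tnc encodes tenascin-C, a hexameric glycoprotein that counteracts adhesion to fibronectin and engages Toll-like receptor 4. It stood at 23.4 CPM (22.1 to 24.6) in Ctrl dFBs and 188 CPM (184 to 193) in AD dFBs, 8.07-fold higher. The share of dFBs with a UMI differed less, at 6.77% (6.16 to 7.42) in Ctrl and 9.38% (8.57 to 10.2) in AD, against 0.179% and 1.28% of T cells. The positive dFBs held a median of 1 UMI in Ctrl and 3 in AD, and the highest single cells held 74 and 445. The difference in level came with more transcripts in a minority of cells, and without the 5 highest cells of each library AD dFBs still stood at 150 CPM and Ctrl dFBs at 19.9 CPM.

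The thrombospondins are trimeric or pentameric calcium-binding glycoproteins. Thbs1, which binds CD47 and CD36 and activates latent TGF-beta, stood at 204 CPM (200.4 to 207.8) in Ctrl dFBs and 1954 CPM (1940 to 1968) in AD dFBs, 9.57-fold higher. The share of dFBs with a Thbs1 UMI was 40.6% in Ctrl and 76.8% in AD, against 2.14% and 13.8% of T cells, whose level was 6.33 and 45.6 CPM. It had the highest level of the 9 in AD dFBs, a place that Sparc held in Ctrl.

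Thbs2, the other trimeric member and a regulator of collagen fibril shape, stood at 438 CPM (433 to 444) in Ctrl dFBs and 1167 CPM (1156 to 1177) in AD dFBs, 2.66-fold higher. It was the most evenly spread of the genes higher in AD, with a UMI in 73.9% of dFBs in Ctrl and 86.7% in AD, against 3.04% and 8.21% of T cells. Thbs4, a pentameric member abundant in tendon, ran opposite at 78.2 CPM (76.0 to 80.5) in Ctrl dFBs and 11.2 CPM (10.2 to 12.4) in AD dFBs. Only 8.99% and 2.22% of dFBs held a Thbs4 UMI, against 0.714% and 0.513% of T cells. In level, T cells stood at 1.95 CPM in Ctrl and at 10.7 CPM (7.14 to 15.3) in AD, where the interval overlapped that of dFBs. This AD level came from the 0.513% of 390 T cells that held a UMI, and the interval does not cover variation between cells.

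Cilp encodes cartilage intermediate layer protein, a matrix protein that binds TGF-beta1. It stood at 379 CPM (374 to 384) in Ctrl dFBs and 84.6 CPM (81.7 to 87.6) in AD dFBs, 4.48-fold lower, with 39.4% and 14.7% of dFBs positive, against 2.50% and 1.54% of T cells.

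Spp1 encodes osteopontin, an acidic phosphoprotein that binds integrins and CD44 and is also made by macrophages. It stood at 7.51 CPM (6.82 to 8.24) in Ctrl dFBs and 49.2 CPM (47.0 to 51.5) in AD dFBs, 6.55-fold higher. These levels rested on few cells, 190 in Ctrl and 222 in AD. The 5 cells with the most Spp1 held 28.8% of the dFB UMIs in Ctrl and 38.5% in AD, and without them the levels were 5.35 and 30.3 CPM.

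Prg4 encodes lubricin. It had 482 UMIs or 8.21 CPM (7.49 to 8.97) in Ctrl dFBs and 12911 UMIs or 340 CPM (334 to 346) in AD dFBs, 41.4-fold higher. On the scale with 1 CPM added, its ratio sat at percentile 99.95 of the 2047 genes, with Thbs1 at 99.6, Tnc at 99.3 and Thbs2 at 93.3. Postn, Sparc and Cilp sat at percentiles 0.54, 1.22 and 3.08. A Prg4 UMI was found in 4.18% of dFBs in Ctrl and 38.4% in AD. In Ctrl, 0 of 560 T cells held one (Clopper-Pearson upper bound 0.657%), and 2.82% of AD T cells did. After thinning, the dFB shares were 0.877% and 16.4%.

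Across marker-gated classes of at least 50 cells, dFBs held the highest level of Sparc, Postn, Thbs2, Thbs4, Cilp and Prg4 in Ctrl, although with Leiden clusters satellite cells exceeded them in Thbs4. Thbs2, Cilp, Tnc and Thbs1 were highest in dFBs in AD. In Ctrl, dFBs contributed 96.3% of the library's Sparc UMIs, 94.6% of Postn and 98.3% of Cilp. In AD they contributed 87.3% of Prg4, 94.7% of Tnc and 85.6% of Thbs1. The gated erythroid cells of AD carried dFB markers at 5260 CPM and are therefore left out of the comparisons of classes.

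**Figure D3:**
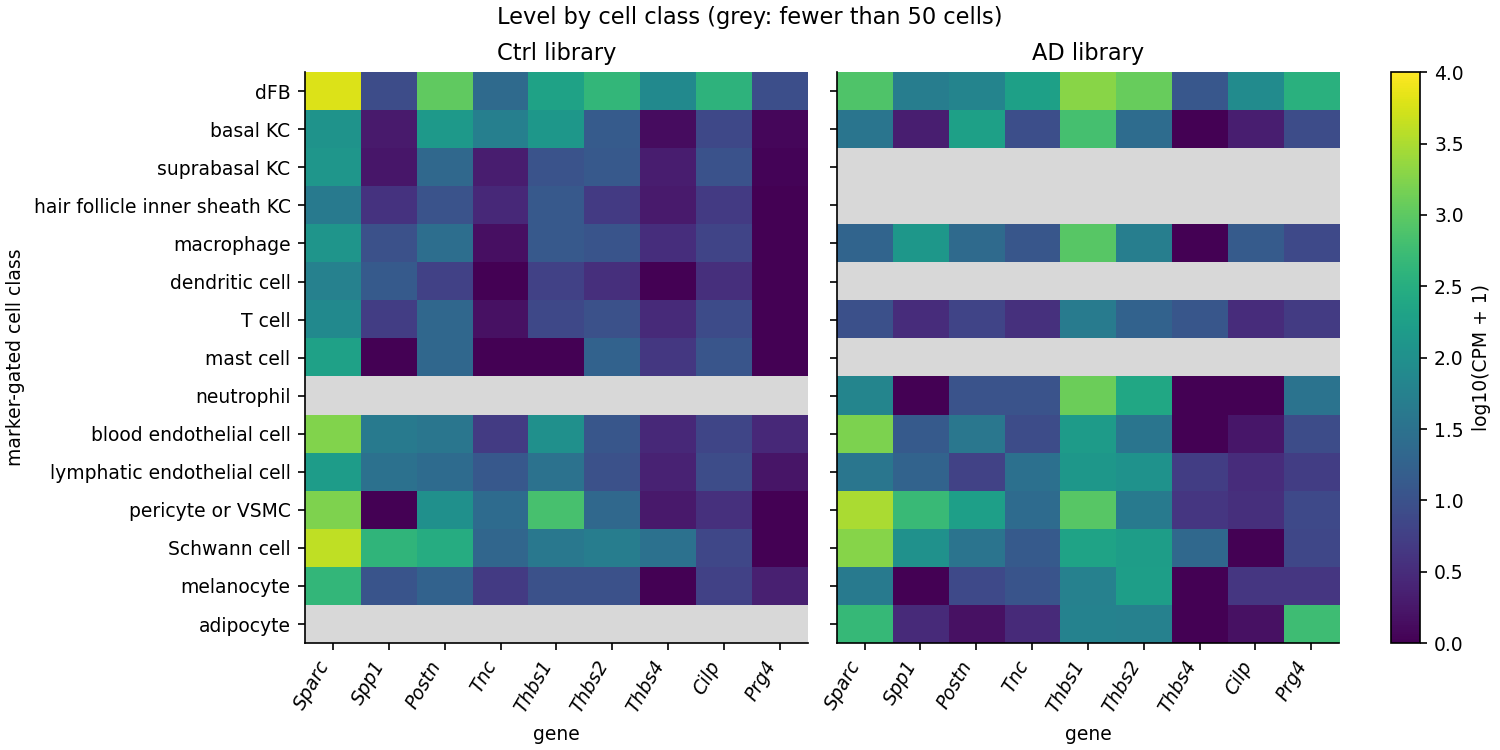
Level of the 9 genes as log10(CPM + 1), in colour, by marker-gated cell class (rows) in the Ctrl library (left) and the AD library (right), with grey for classes of fewer than 50 cells. The dFB row is bright for Sparc and Postn in Ctrl and for Thbs1, Thbs2 and Prg4 in AD, and Spp1 is brightest in Schwann cells in Ctrl and in pericytes in AD.

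The second source of Prg4 in AD was the adipocyte class, of which Ctrl held 1 cell. Its 104 cells stood at 575 CPM (542 to 609), above the 340 CPM of dFBs, and 74.0% of them held a UMI at a median of 18988 UMIs per cell. The 7 adipocyte markers summed to 5140 CPM in these cells and to 35.4 CPM in AD dFBs, against 9.57 CPM in Ctrl dFBs. Leptin, on this list, was at 0 in dFBs of both libraries and so shows no direction. Plin4 was the highest of the list in AD dFBs, at 23.8 CPM against 3.83 for Ctrl. Lipe (7.08 against 4.38), Cidec (2.11 against 0.153), Retn (1.58 against 0.0681) and Adipoq (0.711 against 0.119) were also higher. Plin1 was lower (0.105 against 1.02). The part of adipocyte transcripts in the Prg4 level of dFBs was not tested.

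Sparc varied among the cells of vessels. In pericytes and vascular smooth muscle cells (VSMC) it stood at 1682 CPM (1607 to 1759) in Ctrl and at 3111 CPM (3013 to 3212) in AD. In blood endothelial cells it stood at 1752 CPM in Ctrl and at 1650 CPM in AD, a log2 ratio of -0.086 (-0.18 to 0.0045). Lymphatic endothelial cells ran in the direction of dFBs, at 164 CPM in Ctrl and at 35.6 CPM in AD (log2 ratio -2.20, -2.58 to -1.84). T cells, the background for Sparc, ran the same way, from 78.5 CPM (Ctrl) to 8.46 CPM (AD), a log2 ratio of -3.21 (-3.91 to -2.58). The 7 dFB markers summed to 635 CPM (Ctrl) and 668 CPM (AD) in lymphatic endothelial cells, and their part in this Sparc level was not tested. Schwann cells stood at 4102 CPM of Sparc in Ctrl and 1893 CPM in AD. Their dFB markers summed to 2579 CPM in Ctrl and 1837 CPM in AD, and the part of these in the Sparc level was not tested. The higher value in AD pericytes did not hold in strict gates, which left out cells holding at least 3 markers of another class and gave a log2 ratio of -0.076.

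Tnc was lower in AD in basal keratinocytes (KC), in contrast to dFBs as a whole. It stood at 52.6 CPM (49.1 to 56.2) in 1158 Ctrl basal KC and 7.99 CPM in 351 AD cells, a log2 ratio of -2.72 (-3.21 to -2.26). In Ctrl, basal KC were the class with the highest Tnc and held 35.8% of its UMIs, with 28.3% of cells positive. The 7 dFB markers summed to 519 CPM in Ctrl basal KC and 126 CPM in AD basal KC, and their part in the Tnc level was not tested.

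Thbs1 was higher in AD in every class with at least 50 cells in both libraries and at least 20 CPM in either, T cells, taken as background, included. In basal KC it stood at 129 CPM (123 to 135) in Ctrl and at 655 CPM (633 to 677) in AD. The 442 macrophages of Ctrl stood at 12.3 CPM and the 188 of AD at 912 CPM (867 to 959), a log2 ratio of 6.22. In macrophages the 7 dFB markers summed to 613 CPM in Ctrl and to 317 CPM in AD, with Pdgfra among them at 10.9 and 20.5 CPM, and their part in the Thbs1 level was not tested. Of the macrophage UMIs in AD 38.0% lay in 5 cells, without which the level was 586 CPM. Pericytes stood at 678 and 905 CPM, the smallest of these ratios, and in Ctrl they were the class highest in Thbs1.

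Spp1 shifted between classes. In Ctrl it was highest in Schwann cells, the glia of peripheral nerve, at 417 CPM (369 to 469), and in AD these stood at 105 CPM (72.8 to 146.9). Pericytes and VSMC held no Spp1 UMI in 210 Ctrl cells and stood at 510.5 CPM in 144 AD cells, at least 194-fold higher against a floor of 3 counts over the Ctrl class. Only 16.0% of the AD pericytes held a UMI, and 77.4% of these UMIs lay in 5 cells, without which the level was 124 CPM. Macrophages had 8.97 CPM of Spp1 in Ctrl and 128 CPM in AD, of which 85.4% lay in 5 cells, and the level without these was 19.5 CPM. A further 30.1% of the AD library's Spp1 UMIs lay in cells that no gate assigned.

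Postn outside dFBs was highest in Schwann cells in Ctrl, at 299.8 CPM, and in basal KC in AD, at 187 CPM (176 to 200), where its interval overlapped that of pericytes at 179 CPM (156 to 204). In the Ctrl Schwann cells the 7 dFB markers summed to 2579 CPM, and their part in this Postn level was not tested. Basal KC stood at 140 CPM (134 to 146) in Ctrl. The higher AD value in basal KC rested on few cells, since 5 cells held 44.1% of the UMIs and without the 5 highest cells of each library the log2 ratio was -0.21. In pericytes the log2 ratio of Postn was 0.85 and turned to -1.64 in strict gates.

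The dFBs were divided further by gates on 7 markers each. The names HI-AP and Areg follow the study, and the gates themselves, 6 in number, are not its clusters. Interstitial adipocyte progenitors (HI-AP, marked by Dpp4, Pi16 and Mfap5) were 48.5% of Ctrl dFBs and 18.1% of AD dFBs. Adipogenesis-regulatory cells (Areg, marked by Fmo2, Mgp and F3) were 2.33% and 19.5%, and reticular preadipocytes (Grem1, Cyp26b1, Pparg) were 10.7% and 39.7%. The papillary gate took 384 Ctrl and 155 AD cells. The gate on Acta2, Lrrc15 and Col11a1 held 18 cells in AD against 605 in Ctrl, and follicle mesenchyme 12 against 484, so neither is compared between libraries. The shares depended on the gates. Among Leiden clusters of dFBs, those led by Mgp, Hmcn2 and Myoc held 7.08% of cells in Ctrl and 26.0% in AD. Clusters with Cxcl13, Gm12840 and the HI-AP gate marker Anxa3 among their leading genes held 24.3% in Ctrl and 41.0% in AD, opposite to the interstitial gate.

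**Figure D4:**
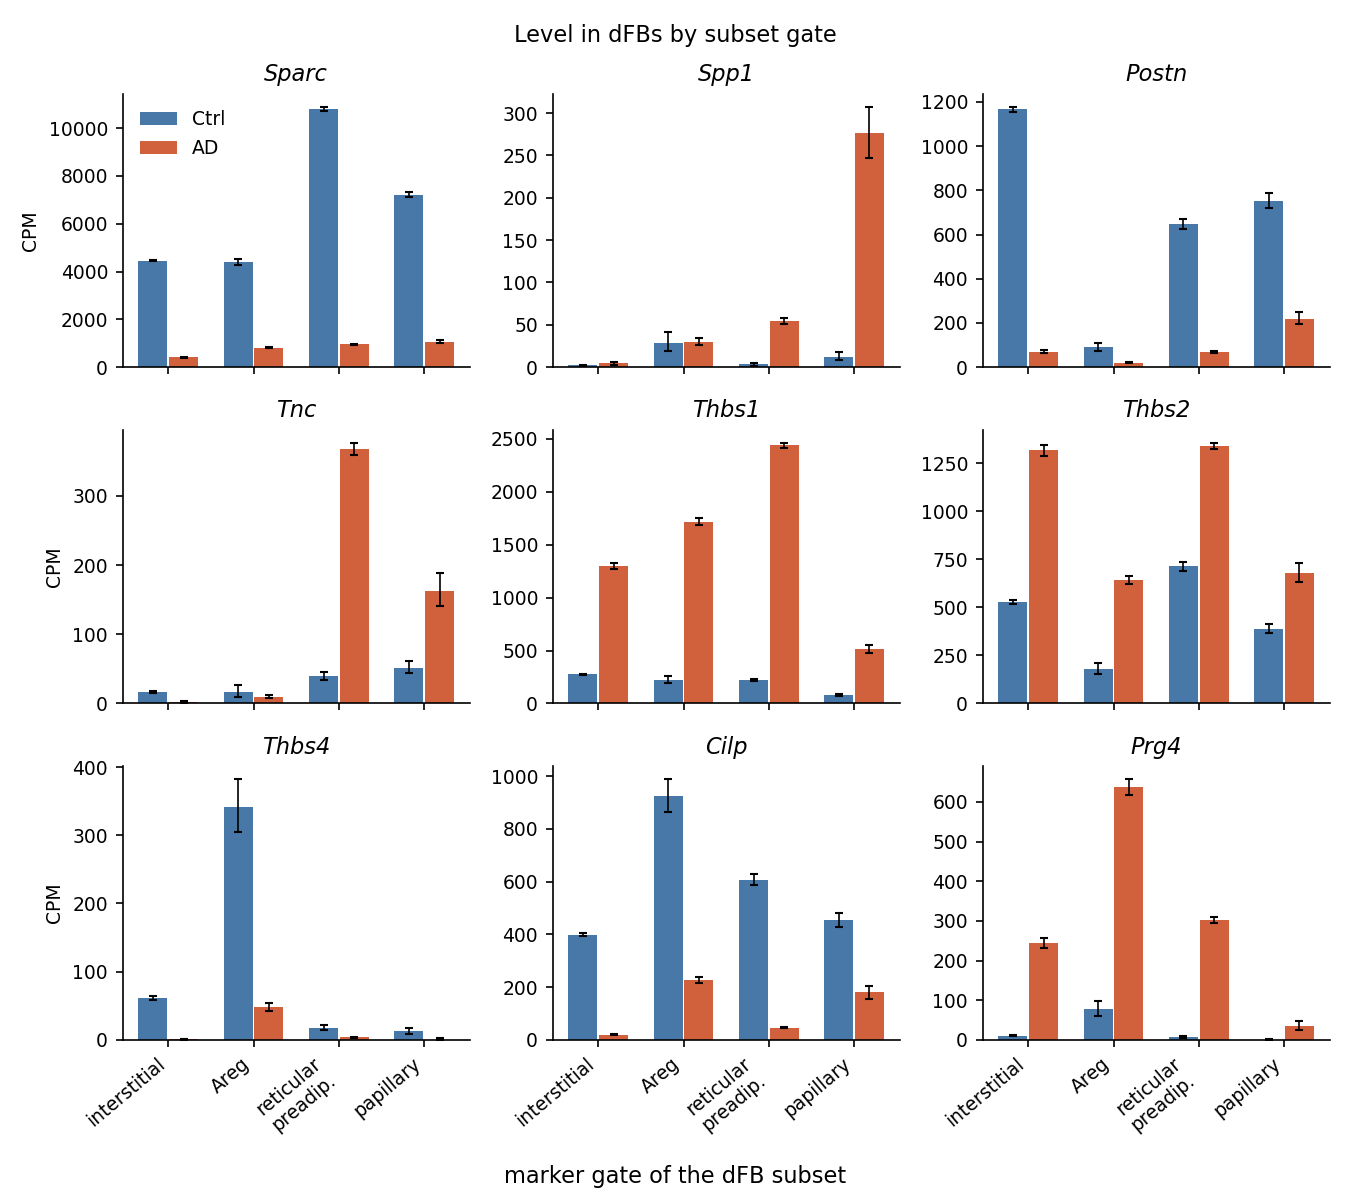
Level of each gene in CPM (linear axis from 0, 1 panel per gene) in dFBs of 4 subset gates in the Ctrl and AD libraries, as bars with 95% counting intervals. Sparc, Postn, Thbs4 and Cilp have higher Ctrl bars and Thbs1, Thbs2 and Prg4 higher AD bars in each of the 4 gates, while Tnc is higher in AD in the reticular preadipocyte and papillary gates and lower in the interstitial gate.

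Within each of the 4 gates with at least 50 cells in both libraries, Sparc, Postn, Thbs4 and Cilp were lower in AD and Thbs1, Thbs2 and Prg4 were higher. Sparc stood at 4454 CPM in Ctrl and at 413 CPM in AD in interstitial cells and at 10813 and 947 CPM in reticular preadipocytes. Thbs1 stood at 274 and 1297 CPM in interstitial cells and at 221 and 2436 CPM in reticular preadipocytes. Prg4 stood at 10.1 and 244 CPM in interstitial cells, at 6.86 and 302 CPM in reticular preadipocytes and at 77.4 and 637 CPM in Areg cells. In papillary cells Thbs4 had 12.4 CPM in Ctrl and 0 UMIs in AD, at least 4.91-fold lower, and Prg4 had 0 UMIs in Ctrl and 35.4 CPM in AD, at least 31.4-fold higher, both against a floor of 3 counts over the gate.

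Areg cells carried the highest Prg4 of the gates in both libraries, and 54.5% of them held a UMI in AD. They were also highest in Thbs4 (342 CPM in Ctrl and 47.9 CPM in AD) and in Cilp (924 and 226 CPM). In AD these 931 cells, 19.5% of dFBs, held 73.1% of the dFB UMIs of Thbs4, 45.7% of Cilp and 32.2% of Prg4. Postn was low in them at 89.3 CPM in Ctrl. Among Leiden clusters built without the 9 genes, the Ctrl cluster led by Mgp, Hmcn2, Myoc and F3 was highest in Thbs4 (679 CPM) and Cilp (1902 CPM). This Ctrl cluster had 492 CPM of Postn and 21.7 CPM of Prg4, against 89.3 and 77.4 CPM in the Areg gate. The AD cluster led by Mgp, Cxcl14 and Hmcn2 was highest in Prg4 (684 CPM) and Thbs4 (37.4 CPM), while its Cilp, at 179 CPM, was below the 319 CPM of the cluster led by Prdm1 and Ednrb. With sub-clusters named from the subset lists, however, the highest subset for Cilp and Thbs4 in Ctrl was no longer Areg.

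The Tnc difference was uneven across dFBs. Reticular preadipocytes stood at 39.3 CPM (34.1 to 45.0) in Ctrl and at 368 CPM (359 to 377) in AD, and in AD they held 92.9% of the dFB UMIs of Tnc. Papillary cells stood at 51.8 and 163 CPM. Interstitial cells stood at 16.2 CPM (14.8 to 17.7) in Ctrl and at 2.09 CPM (1.11 to 3.57) in AD, a log2 ratio of -2.96. The Ctrl value rested on 135 of 3038 cells. Of its UMIs 28.5% lay in 5 cells, without which the level was 11.6 CPM. In Areg cells the interval of the ratio included 0, with 16.3 and 9.82 CPM. Among AD clusters, the one led by Chl1, Cpxm1, Cyp24a1 and Grem1 had 653 CPM of Tnc, whereas the largest AD cluster, led by Gm12840, Cxcl13 and Ptgs2, had 4.07 CPM. A Ctrl cluster that also had Gm12840 and Cxcl13 among its leading genes had 1.80 CPM. Between these clusters Tnc was thus not lower in AD, unlike in the interstitial gate.

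Spp1 in AD was highest in the papillary gate, at 276 CPM (247 to 308) against 12.4 CPM in Ctrl, with 21.3% of cells positive. Of these UMIs 63.1% lay in 5 of the 155 cells, without which the level was 109.8 CPM. The AD cluster led by Prdm1, Ednrb and Prlr, with 727 cells and a median of 3073 UMIs, held 430 CPM and 53.3% of the Spp1 UMIs of the AD dFB clusters. Areg cells did not differ in Spp1 beyond counting error, at 28.3 and 29.8 CPM, but few cells carried these levels. The Ctrl level rested on 26 UMIs in 6 of 146 cells. The 5 highest cells held 96.2% of the UMIs in Ctrl and 73.2% in AD. Without them the Ctrl level was 1.13 CPM and the AD level 8.05 CPM. The counting interval does not cover such variation between cells, so whether Areg cells differed in Spp1 stays undecided. Postn in Ctrl was highest in the Acta2, Lrrc15 and Col11a1 gate at 1756 CPM (1727 to 1785), followed by interstitial cells at 1167 CPM (1155 to 1179).

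Because the gated subsets took different shares of dFBs in the 2 libraries, the ratios were also computed with each subset weighted by its cells in Ctrl. Only subsets of at least 50 cells in both libraries entered, with the cells of no subset. The Acta2, Lrrc15 and Col11a1 gate (9.66% of Ctrl dFBs, with 37.8% of their Thbs4 UMIs) and follicle mesenchyme (7.73%) were thus left out. These ratios and those of all dFBs therefore cover different cells. The weighted log2 ratio of Tnc was 1.44, against 3.01 over all dFBs, and that of Prg4 4.67 against 5.37. That of Thbs4 was -4.13 against -2.80 and that of Cilp -3.19 against -2.16. No gene changed direction.

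Of 24 other matricellular genes, 8 reached 100 CPM in dFBs, of which 2 were 2-fold or more higher in AD and 1 lower, beside 12.8% and 11.8% of all genes over the floor. The median log2 ratio of the 8 was -0.47 against 0.047 over all 2047 genes. Ccn2, a connective tissue growth factor, stood at 65.7 CPM in Ctrl and at 150 CPM in AD, and Smoc2, a Sparc-related calcium-binding protein, at 191 and 560 CPM. Fbln5, which assembles elastic fibres, stood at 199.6 and 62.2 CPM. Ccn1, the most abundant of these in Ctrl at 1588 CPM, stood at 1173 CPM in AD.

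Of 22 receptors and uptake proteins, 10 reached the floor, with 3 higher in AD and 0 lower, beside the same 12.8% and 11.8%, and a median log2 ratio of -0.10. The 3 were Sdc4, a heparan sulphate co-receptor, at 299 and 808 CPM, Egfr at 226 and 522 CPM, and Itga5, a chain of the fibronectin receptor, at 63.0 and 150 CPM. The thrombospondin receptor Cd47 stood at 493 and 437 CPM and the osteopontin receptor Cd44 at 144 and 140 CPM. Of 10 genes that respond to tissue dissociation, all over the floor, Junb and Fos were 2-fold or more higher in AD, 2 of 10 against the 12.8% of all genes, and 0 were lower. The median log2 ratio was 0.48, with Hspa1a at -0.28 and Hspa1b at -0.38. Their summed level was 20972 CPM in Ctrl dFBs and 30151 CPM in AD dFBs, and their part in the Thbs1 difference was not tested.

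Markers of other cell types inside the dFB gate summed to levels that differed by list. The basal KC list summed to 156 CPM in Ctrl and 33.2 CPM in AD dFBs, the macrophage list to 41.3 and 25.8 CPM and the pericyte list to 136 and 38.2 CPM. The melanocyte list summed to 190 and 694 CPM through Gpnmb and Mitf, while its pigment gene Dct stood at 11.1 and 1.47 CPM. The Schwann cell list summed to 187 and 496 CPM through Scn7a, while Sox10 stood at 0.306 and 0.237 CPM.

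Over 25 points, each a cell class in 1 library with at least 50 cells, the genes whose levels on the log2(CPM + 1) scale were most like each of the 9 were found among 8655 genes. The points share libraries and depth, and 1 of them is the erythroid class of AD. Sparc was most like Col5a2 (r = 0.90), Thbs2 like Lvrn (0.95) and Ctsk (0.94), Prg4 like Masp1 (0.87), Cilp like Pdgfrl (0.85) and Thbs1 like Errfi1 (0.82) and Igfbp3 (0.81). The nearest genes were less alike for Postn (Axl, 0.78), Thbs4 (Itm2a, 0.76), Spp1 (Ank2, 0.72) and Tnc (Golm2, 0.70). Thbs1 was itself the next gene most like Tnc, at 0.69.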

How the data were processed

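For each library the authors deposited the counts of UMIs per gene and barcode made by Cell Ranger on the mm10 reference, without normalization. The version is given as 6.0.0 in the methods, 5.0.0 in the file headers and 3.1.0 in the submitters' processing notes. The filter of the methods was applied, which keeps a cell that has 200 to 6000 genes and no more than 10% mitochondrial UMIs. The totals after filtering were 105195951 UMIs in Ctrl and 61645227 UMIs in AD.

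A cell joined the class whose 7 markers had the highest summed log2(1 + UMIs per 10000), with at least 3 markers detected and a margin of 2 over the next class. Subsets of dFBs needed 2 markers and a margin of 1. Of the gated dFBs, 64 in Ctrl and 28 in AD lay within 1 of the margin. Shares of cells were also computed after thinning each cell to 1000 UMIs. Doublets were kept, and left out as an alternative. The authors' cell names were not used, so a difference from its subsets may arise from the gates. Scrublet's own threshold marked 395 cells in Ctrl and 0 in AD, so the 5% of cells with the highest scores were removed instead.

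A ratio of AD over Ctrl is on the log2 scale, with an exact conditional binomial interval. For the ranking and the 2-fold counts over genes, 1 CPM was added and a floor of 100 CPM in either library was set. All 9 genes were to be named, along with genes of the fixed lists at 100 CPM or more in dFBs and past 2-fold, and the 3 genes most like each of the 9 were computed. Other genes, such as Ccn1, Cd47, Cd44 and the leading genes of clusters, were chosen after their values were seen. The 9 genes, the lists and the gates were chosen with earlier results of these data known. Loci come from GENCODE M21, which held 95.8% of the identifiers. The ratio was checked on simulated data. Analyses used Python 3.11.15, scanpy 1.11.5 and scipy 1.17.1.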

Additional observations from a re-analysis of the deposited data

Results flagged for a closer look

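In 7 places a cell class differed between the libraries in the direction opposite to dFBs, with at least 50 cells in both libraries, at least 20 CPM in either and a counting interval of the ratio that excluded 0. With 1 library per condition, none of these differences was tested. For Sparc, lower in AD dFBs, pericytes and VSMC had a log2 ratio of AD over Ctrl of 0.89. For Postn, also lower in AD dFBs, basal KC had a log2 ratio of 0.42 and pericytes and VSMC one of 0.85. Spp1, higher in AD dFBs, had log2 ratios of -1.78 in blood endothelial cells, -0.73 in lymphatic endothelial cells and -1.99 in Schwann cells. The value in blood endothelial cells rested on 45 UMIs in 5 Ctrl cells, 31 of them in 1 cell, and on 17 UMIs in 4 AD cells. In lymphatic endothelial cells the UMIs lay in 10 Ctrl and 8 AD cells. Tnc, higher in AD dFBs, had a log2 ratio of -2.72 in basal KC. Within dFBs, the interstitial gate also ran opposite to all dFBs for Tnc, with a log2 ratio of -2.96. The Sparc and Postn values in pericytes and the Postn value in basal KC changed sign in at least 1 alternative, whereas the Tnc value in basal KC kept its sign in all 4 alternatives run for it.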

How the results depend on the processing

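The 9 dFB ratios kept their direction in each of the 11 alternatives run for each gene, and the counts of 5 genes higher and 4 lower held in all 10 run for them. Over all genes, lowering the floor to 20 CPM gave 506 genes higher and 841 lower of 7026. In other classes, the log2 ratio of Sparc in pericytes was -0.076 in strict gates, and that of Postn in pericytes was -0.12 with Leiden clusters and -1.64 in strict gates. Without the 5 highest cells in each library, a check added after seeing the data like the Ctrl weighting of subsets and the gate without 2 collagens, Postn in basal KC was -0.21. The highest class was replaced for 3 of 18 pairs of gene and library, here as log2 of the reported class over the other: Sparc in AD (-0.33, strict gates, blood endothelial cells), Thbs4 in Ctrl (-0.61, Leiden clusters, satellite cells) and Thbs4 in AD (-3.68 with Leiden clusters and -0.86 with each cell's own CPM averaged). The highest dFB subset was replaced for 8 of 18. Strict subset gates gave -0.998 for Spp1 in Ctrl, -0.12 for Thbs4 in Ctrl and -0.22 for Cilp in AD. Named sub-clusters gave -0.19 for Sparc in Ctrl, -0.21 for Thbs1 in AD, -1.94 for Thbs2 in Ctrl, -0.31 for Thbs2 in AD, -0.51 for Thbs4 in Ctrl and -2.91 for Cilp in Ctrl. The cause of these changes was not tested. The Spp1 ratio in dFBs ran from 2.50 without the 5 highest cells to 3.48 with Leiden clusters. In Ctrl, UMIs of Tnc, Thbs4, Spp1 and Prg4 were each found in under 10% of dFBs. No paired analysis was possible because each group has 1 library, and no replicate could be left out.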

Other observations

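A small dFB cluster with Fmod, Coch and Tnmd among its leading genes in both libraries held 75 Ctrl and 108 AD cells. It had the highest Sparc of the AD dFB clusters, at 2481 CPM against 7060 CPM in Ctrl, while its Postn stood at 1660 CPM in Ctrl and at 43.2 CPM in AD. Its Tnc stood at 48.9 and 52.5 CPM.

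Thbs2 was also found outside dFBs in AD. Lymphatic endothelial cells stood at 8.92 CPM in Ctrl and at 107.6 CPM in AD, and 60.1% of the AD UMIs lay in 5 cells, without which the level was 44.3 CPM. Melanocytes stood at 8.69 and 171 CPM, of which 96.1% lay in 5 cells. The 51 neutrophils of AD had 1277 CPM of Thbs1, of which 76.8% lay in 5 cells, and dFB markers summed to 1719 CPM in them.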
